A study of Mus musculus with 9 samples.

Results

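The RNAs described here are 10 long noncoding RNAs of neuronal nuclei, chosen by name as Malat1, Meg3, Snhg11, Miat, Rian, Mirg, Neat1, Peg13, Kcnq1ot1 and Pantr1. They are 10 of the 48709 genes in the count files, and all 10 passed the filter on low counts that left 17361 genes for testing. The RNA came from nuclei of frozen hippocampi that were sorted by staining for NeuN, a nuclear protein of neurons, and 9 libraries were sequenced, 3 in each of 3 groups. The first group was WT mice (C57BL/6J) on vehicle. The second was Tg4-42 mice on vehicle, and the third was Tg4-42 mice on caffeine at 300 mg/l in the drinking water. Treatment began at 2 months of age and lasted 4 months, so all mice were 6 months old, and vehicle was tap water. Tg4-42 mice are homozygous for a transgene for human Aβ4-42, joined to a murine TRH signal peptide and driven by the neuronal murine Thy1 promoter, on the C57BL/6J background. The genotype label of both transgenic groups reads APP Transgenic, while the strain label names human Abeta4-42, the product of this transgene. The labels give the treatment for the caffeine group only. WT mice on caffeine were not analysed here, so an effect of caffeine without the transgene cannot be told apart from one that needs it. The labels speak of 6 mice in each group at the step of nuclei isolation, and each of the 3 libraries per group carries its own animal number.

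Long noncoding RNAs are transcribed and often spliced like messenger RNAs but do not code for a protein, and many of them stay in the nucleus. Malat1 sits in nuclear speckles, bodies rich in splicing factors, and Neat1 is the scaffold of paraspeckles. Meg3, Rian and Mirg are expressed from the maternal copy of the imprinted Dlk1-Dio3 locus, where imprinting means that the gene copy from 1 parent is silent, and Kcnq1ot1 and Peg13 are expressed from the paternal copy of their loci. Of the others, Miat binds splicing factors and Snhg11 is a host gene of small nucleolar RNAs. Pantr1 lies beside Pou3f3, which encodes a neural transcription factor.

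The maternally expressed transcripts Meg3, Rian and Mirg are also hosts of microRNAs, and their mature sequences show what those transcripts carry. On mm10 the 3 genes follow each other on the plus strand of chromosome 12, at chr12:109541001-109571726 for Meg3, chr12:109603940-109661716 for Rian and chr12:109729764-109749460 for Mirg, with gaps of 32213 and 68047 bp between them. Of the microRNA hairpins in the RefSeq table (GRCm38.p6), 1 lies within Meg3, in an exon, 3 lie within Rian, none of them in an exon, and 14 lie within Mirg, 4 of them in exons. The mature strands below, of the exonic hairpins and of 1 of the Rian hairpins, have the seed, bases 2 to 8, in capitals, and no seed is shared among them.
mmu-miR-770-5p (Meg3): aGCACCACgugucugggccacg
mmu-miR-370-3p (Rian): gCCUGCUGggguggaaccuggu
mmu-miR-134-5p (Mirg): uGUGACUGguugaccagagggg
mmu-miR-485-3p (Mirg): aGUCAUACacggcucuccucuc
mmu-miR-377-3p (Mirg): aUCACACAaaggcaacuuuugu
mmu-miR-410-3p (Mirg): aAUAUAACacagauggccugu
The libraries counted the host transcripts and not the mature microRNAs.

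Promoter windows of 250 bases before to 50 bases after the annotated start were in the RefSeq table for Malat1, Meg3, Snhg11, Miat, Rian, Mirg and Kcnq1ot1. They are shown for Malat1 and Meg3, at the top of the counts, and for Kcnq1ot1, with the higher counts of the paternally expressed members. Capitals mark matches on either strand to the motif CCAAT, to the cAMP response element core TGACG and to the TATA box letters TATAAA, and overlapping matches run together. The box GGGCGG was searched too and is in none of these 3.
Malat1, chr19:5802623-5802922, minus strand: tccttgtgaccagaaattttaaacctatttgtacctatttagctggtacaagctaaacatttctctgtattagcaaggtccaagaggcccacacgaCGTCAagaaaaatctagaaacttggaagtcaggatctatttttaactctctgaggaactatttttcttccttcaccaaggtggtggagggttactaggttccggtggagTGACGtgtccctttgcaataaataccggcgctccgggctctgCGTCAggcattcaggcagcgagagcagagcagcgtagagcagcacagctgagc
Meg3, chr12:109540746-109541045, plus strand: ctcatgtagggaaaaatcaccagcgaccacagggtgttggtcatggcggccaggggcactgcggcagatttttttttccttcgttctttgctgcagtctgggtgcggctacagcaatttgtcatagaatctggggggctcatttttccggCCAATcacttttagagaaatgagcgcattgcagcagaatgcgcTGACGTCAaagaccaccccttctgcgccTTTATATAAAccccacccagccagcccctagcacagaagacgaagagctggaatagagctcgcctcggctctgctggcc
Kcnq1ot1, chr7:143296498-143296797, minus strand: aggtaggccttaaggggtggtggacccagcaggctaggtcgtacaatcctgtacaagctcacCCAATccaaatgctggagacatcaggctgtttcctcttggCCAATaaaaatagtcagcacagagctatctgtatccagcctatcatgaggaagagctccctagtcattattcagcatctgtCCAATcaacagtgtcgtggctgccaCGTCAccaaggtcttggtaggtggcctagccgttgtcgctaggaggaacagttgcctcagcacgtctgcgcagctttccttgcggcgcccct
The Malat1 window held 3 matches to TGACG and the Meg3 window 2, which overlap, while 20.8% of 32851 promoter windows held at least 1. Meg3 also had 1 CCAAT and 2 overlapping TATAAA matches, and Kcnq1ot1 had 3 CCAAT matches and 1 TGACG. Over all windows, 37.4% held CCAAT, 13.6% held TATAAA and 35.7% held GGGCGG. Of the other windows, those of Snhg11 and Rian and a second window of Meg3 had no match to the 4 motifs, Mirg had 1 CCAAT and Miat 1 GGGCGG. The Mirg window, chr12:109734731-109735030, lies inside the gene as placed above and holds the mature miR-485-3p. It is therefore not the window at the start of that span, and the second window of Meg3 and the window of Miat lie inside their genes too. The CG dinucleotides numbered 25 in the Miat window, 21 in that of Snhg11 and 0 in that of Rian, against a median of 7 over all windows.

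The library totals ranged from 9342945 to 16376922 counts, and 3 counts, taken as the floor of detection, were 0.183 to 0.321 CPM, the usual scaling of a gene's count to the total of its library. Levels are given as CPM on TMM-scaled library sizes, as mean ± SD with n = 3 per group, and counting error is separate from and smaller than this spread except where stated. Going by the library names, lane 7 held replicate 3 of each group and lane 6 the rest. RNA of glial marker genes was detected: the summed level of 8 neuronal markers was 6580 to 9160 CPM over the libraries, while that of 8 astrocyte markers was 285 to 432, of 10 oligodendrocyte markers 258 to 518 and of 8 microglia markers 43.5 to 78.4 CPM, and no marker in these lists was at 0 in all libraries.

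Malat1, Snhg11 and Meg3 were the 3 genes with the highest counts in every library, and together they held 2.083 to 3.007% of all counts. The 10 RNAs together held 2.274 to 3.246%. By mean CPM over the 9 libraries, Malat1 was at 9260, Snhg11 at 7902 and Meg3 at 6608. Kcnq1ot1 followed at 1065 CPM, then Miat at 495.9, Rian at 426.6, Peg13 at 158.1, Mirg at 37.28, Pantr1 at 23.26 and Neat1 at 11.62. Malat1 had rank 1 in 6 libraries and Snhg11 in the other 3, and Meg3 had rank 3 in all 9.

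Exon lengths differ widely among these genes, from 4458 bp for Pantr1 to 93092 bp for Kcnq1ot1, so levels were compared with each other only per kilobase of annotated exon. On this scale Malat1 was at 1326 CPM per kb, ahead of every other of the 48349 genes with an annotated length, and Snhg11 at 927.4 had rank 4, after Malat1 and the protein-coding genes Prnp and Calm2. Meg3 was at 365.3 CPM per kb, and Snap25, the synaptic vesicle fusion protein gene, at 399. Miat followed at 53.36, Peg13 at 33.47, Rian at 23.4, Kcnq1ot1 at 11.44, Pantr1 at 5.217, Mirg at 5.113 and Neat1 at 0.5596 CPM per kb. Kcnq1ot1, above Miat, Rian and Peg13 by CPM, was below all of these per kilobase. The counts are per gene, so how evenly reads cover long exons such as that of Kcnq1ot1 cannot be seen. Among neighbours in this order, the ranges over libraries overlapped between Malat1 and Snhg11, between Peg13 and Rian and between Pantr1 and Mirg. The higher of each pair was so in 9 of 9 libraries for the former pairs, while Pantr1 was above Mirg in 5 of 9.

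**Figure D1:**
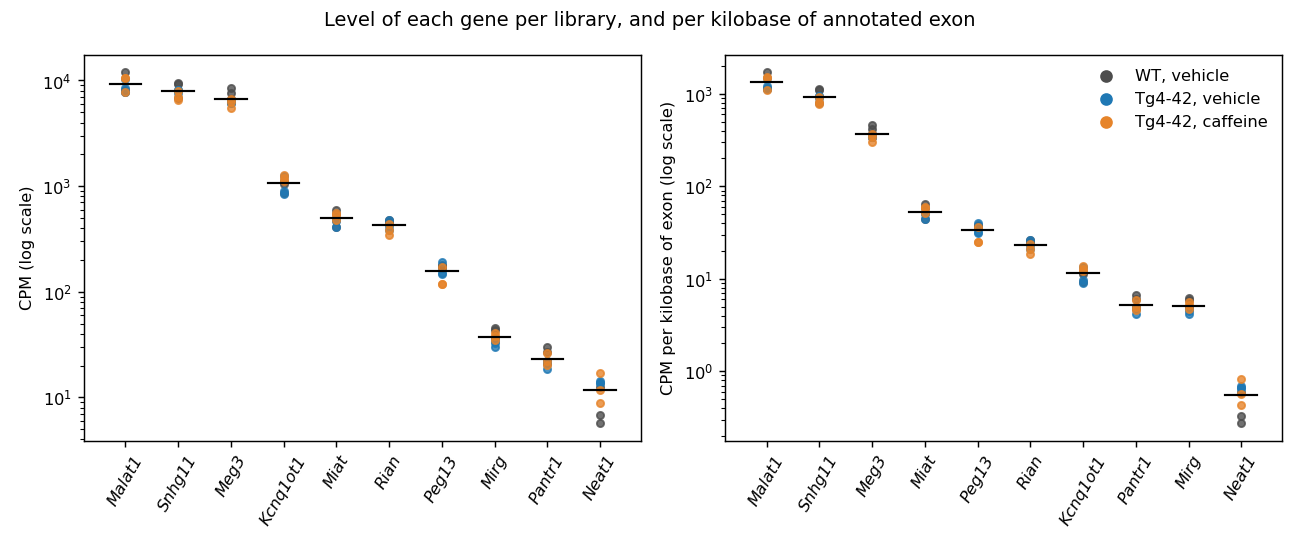
Level of each long noncoding RNA in the 9 libraries as CPM (left) and as CPM per kilobase of annotated exon (right), both on log axes, with libraries as points coloured by group and the mean of the 9 libraries as a line. Malat1, Snhg11 and Meg3 lead on both scales, Kcnq1ot1 drops from 1065 CPM to 11.44 CPM per kb, and Neat1 is lowest on both.

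In the test of all genes, none of the 10 was called at an adjusted p of 0.05 in any of the 3 comparisons, by edgeR's quasi-likelihood test, by DESeq2 or by limma-voom. Between Tg4-42 and WT mice on vehicle, 0.0979% of all tested genes were called, 17 in number, and 2 of the 10 RNAs, Mirg and Neat1, had an unadjusted p under 0.05, where the share of all tested genes was 2.74%. Between caffeine and vehicle in Tg4-42 mice, 0.881% of genes were called, and none of the 10 RNAs had an unadjusted p under 0.05, against 17% of all tested genes. Between Tg4-42 mice on caffeine and WT mice, 0.415% were called, and 1 of the 10, Peg13, had an unadjusted p under 0.05, against 15.4%. The comparisons share libraries, so their values are given side by side and not as separate evidence. The intervals were not all narrow: the widest, for Neat1, reached 0.59 to either side of the estimate on the log2 scale, and a p above the threshold does not show that the levels were equal. An exact permutation test of 3 libraries against 3 cannot give a p under 0.1. In bulk libraries such as these, fewer nuclei of a type and less RNA per nucleus cannot be told apart.

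Between Tg4-42 and WT mice on vehicle, the libraries of both groups did not overlap for Meg3, Mirg and Neat1, 3 of 10 where 6.73% of all tested genes did not overlap. Between caffeine and vehicle this held for Mirg, 1 of 10 against 23% of all genes. Between caffeine-treated Tg4-42 and WT mice it held for Rian and Kcnq1ot1, 2 of 10 against 18.8%. The median log2 fold change of the 10 RNAs was -0.12, 0.05 and -0.15 in the 3 comparisons, where that of all tested genes was 0, -0.01 and -0.01. Estimates were positive for 1, 5 and 4 of the 10, where those of 50.5%, 48.5% and 48.5% of all tested genes were.

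**Figure D2:**
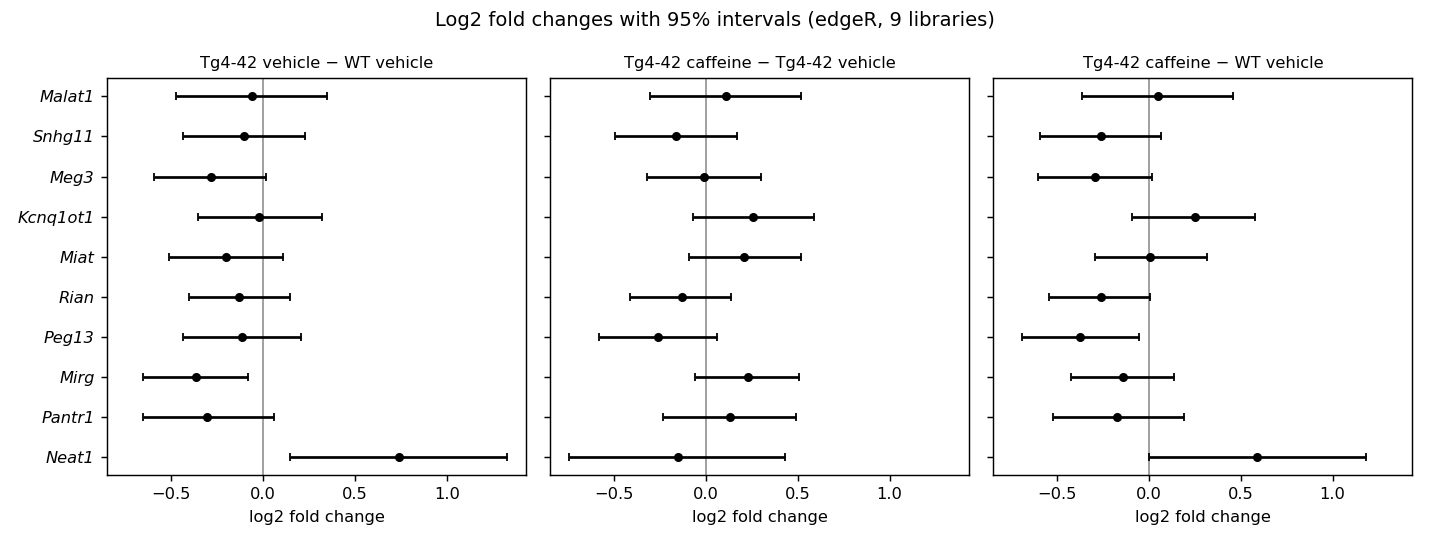
Log2 fold changes of the 10 long noncoding RNAs with 95% intervals from the edgeR fit of 9 libraries, for the 3 comparisons, with genes ordered by level and a line at 0. Between Tg4-42 and WT mice on vehicle the intervals of Mirg and Neat1 leave out 0, as does that of Peg13 between caffeine-treated Tg4-42 and WT mice, and no adjusted p is under 0.05.

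Malat1, the speckle RNA (chr19:5795690-5802672, minus strand, merged exons of 6983 bp), was at 11990, 8071 and 7786 CPM in the WT libraries. It was at 10430, 7817 and 8474 CPM in Tg4-42 mice on vehicle and at 10480, 7759 and 10530 CPM in those on caffeine. The lowest library of every group lay between 7759 and 7817 CPM and the groups overlapped. The group means were 9281 ± 2350, 8907 ± 1360 and 9592 ± 1590 CPM. The counting error of a library was 0.274 to 0.304% of its value by group, far under the coefficient of variation of 15.3 to 25.3% between libraries. For Malat1 the log2 fold change was -0.06 (95% interval -0.47 to 0.35) for Tg4-42 against WT, 0.11 (-0.3 to 0.52) for caffeine against vehicle and 0.05 (-0.36 to 0.46) for caffeine-treated Tg4-42 against WT. The replicates of Malat1 differed by 0.276 on the log2 scale (pooled within-group SD), where the median of all tested genes was 0.233.

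Neat1, the paraspeckle scaffold, lies 22035 bp from Malat1 on the same strand (chr19:5824708-5845478) and was at the other end of the scale. It was at 5.727, 6.822 and 12.41 CPM in the WT libraries and at 14.29, 13.8 and 13.81 CPM in Tg4-42 mice on vehicle. On caffeine it was at 11.76, 8.85 and 17.14 CPM. All 3 vehicle-treated Tg4-42 libraries were above all 3 WT libraries, though the WT library of replicate 3 lay close to them, and the caffeine libraries spanned both groups. The log2 fold change for Tg4-42 against WT was 0.74 ± 0.28 (SE), with a 95% interval of 0.15 to 1.33 and an adjusted p of 1 by edgeR's quasi-likelihood test. On lane 6 alone the difference of mean log2 CPM was 1.15, and on lane 7, with 1 library per group, it was 0.15. Without the WT library of replicate 3 the log2 fold change was 1.14 and without that of replicate 1 it was 0.54. Caffeine against vehicle gave -0.15 (-0.74 to 0.43), and caffeine-treated Tg4-42 against WT gave 0.59 (0 to 1.18). The counts behind these values were 73 to 223 per library, so that counting error alone was 7.6 to 8.97% by group, and in the vehicle-treated Tg4-42 group the spread between libraries (1.99%) was smaller than that.

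Of the maternally expressed RNAs of the Dlk1-Dio3 locus, Meg3 (exons of 18089 bp) was at 8395, 6617 and 7537 CPM in WT libraries. In Tg4-42 mice it was at 6178, 6123 and 6210 CPM on vehicle and at 5466, 6721 and 6226 CPM on caffeine. All 3 vehicle-treated Tg4-42 libraries were below all 3 WT libraries, and the caffeine group overlapped both. The log2 fold change for Tg4-42 against WT was -0.28 ± 0.15 (95% interval -0.59 to 0.02, adjusted p of 1 by edgeR), and the difference was -0.28 on lane 6 and -0.28 on lane 7. For caffeine against vehicle it was -0.01 (-0.32 to 0.3), and for caffeine-treated Tg4-42 against WT -0.29 (-0.6 to 0.02, adjusted p 0.35 by edgeR).

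Mirg, the microRNA host of that locus with the 4 exonic hairpins shown above, was at 43.23, 36.45 and 45.26 CPM in WT libraries. It was at 34.2, 30.29 and 32.6 CPM in Tg4-42 mice on vehicle and at 37.86, 41.07 and 34.6 CPM in those on caffeine. The vehicle-treated Tg4-42 libraries were below every library of both other groups. Tg4-42 against WT gave a log2 fold change of -0.36 ± 0.13 (95% interval -0.65 to -0.08, adjusted p of 1 by edgeR), with -0.3 on lane 6 and -0.47 on lane 7. It was 0.23 ± 0.13 for caffeine against vehicle (-0.06 to 0.51, adjusted p 0.413 by edgeR) and -0.14 (-0.42 to 0.14) for caffeine-treated Tg4-42 against WT. Mirg had 316 to 700 counts per library, a counting error of 4.05 to 5.01% by group.

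Rian, the host of small nucleolar RNAs and of microRNAs between the other 2 genes, was at 480.4, 448.2 and 467.2 CPM in WT libraries. It was at 475.4, 384.5 and 418.1 CPM on vehicle and at 438.5, 385 and 342 CPM on caffeine in Tg4-42 mice. The caffeine libraries were all below the WT libraries, while the vehicle-treated Tg4-42 libraries overlapped both. The log2 fold change was -0.13 (-0.4 to 0.15) for Tg4-42 against WT, -0.13 (-0.41 to 0.14) for caffeine against vehicle and -0.26 (-0.54 to 0.01, adjusted p 0.351 by edgeR) for caffeine-treated Tg4-42 against WT. So the 3 RNAs of the locus had negative estimates between Tg4-42 and WT mice, and between caffeine and vehicle that of Mirg was positive and that of Rian negative. The estimate of Meg3 there, at -0.01, changed sign under 7 of 18 alternatives. Per kilobase of exon, the imprinted protein-coding genes of the locus, Rtl1, Dlk1 and Dio3, were at means of 1.98, 0.327 and 0.987 CPM per kb, below the 5.113 of Mirg. The other 5 genes of the locus list were at 1.95 (Wdr25) to 22 CPM per kb (Wars), and 4 of these 5 were above Mirg. None of the 8 genes was called by edgeR in any comparison. The unadjusted p was under 0.05 for 0, 2 and 1 of them in the 3 comparisons, against 2.74%, 17% and 15.4% of all tested genes.

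**Figure D3:**
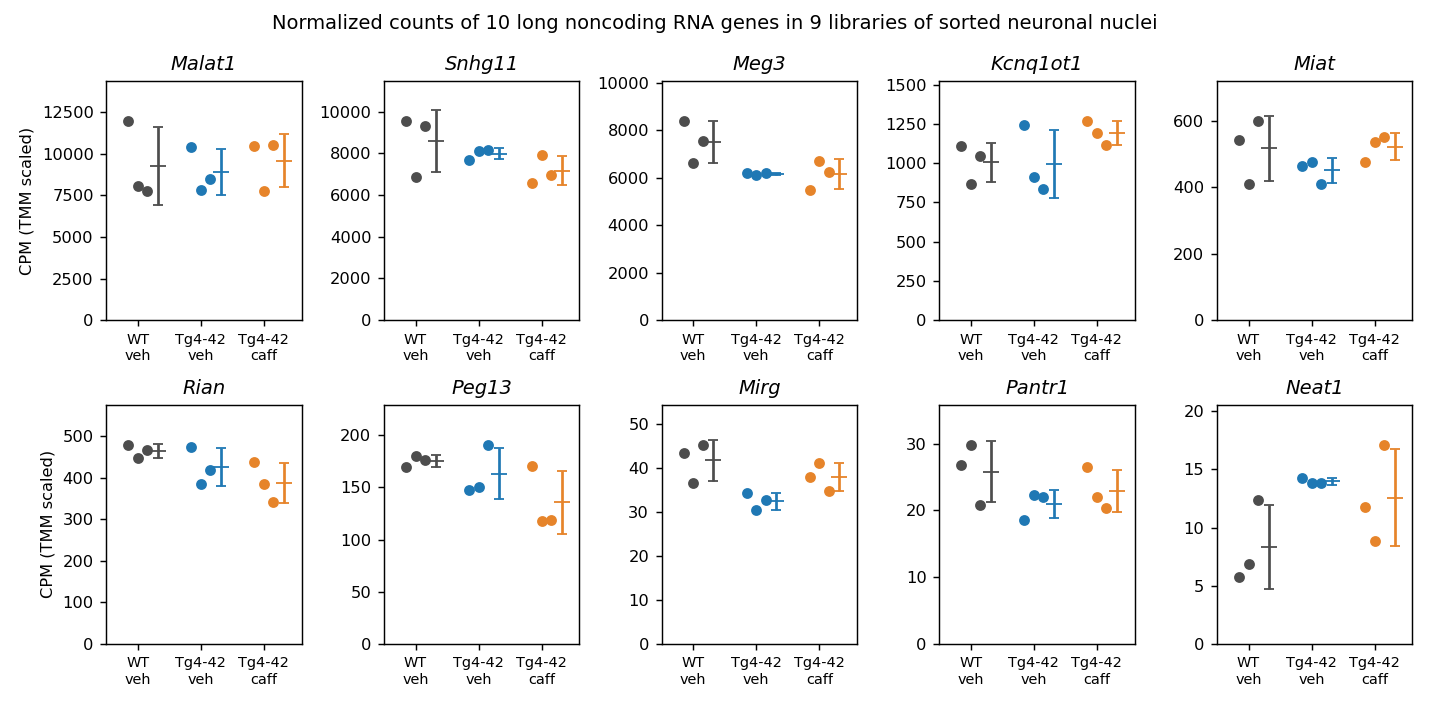
CPM of each long noncoding RNA in each of the 9 libraries on linear axes from 0, with points for the 3 replicates of a group in order and a bar for mean ± SD (n = 3). The vehicle-treated Tg4-42 libraries of Meg3 (6123 to 6210 CPM) and Mirg (30.29 to 34.2 CPM) lie below the WT libraries and those of Neat1 (13.8 to 14.29 CPM) above them.

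Kcnq1ot1, the paternally expressed antisense RNA within Kcnq1 (chr7:143203458-143296549, minus strand), was at 1109, 867.5 and 1042 CPM in WT libraries. It was at 1241, 908.2 and 837.8 CPM in Tg4-42 mice on vehicle and at 1269, 1193 and 1117 CPM in those on caffeine. The caffeine libraries were all above the WT libraries, and 1 vehicle library lay among them. Tg4-42 against WT gave a log2 fold change of -0.02 (-0.35 to 0.32), caffeine against vehicle one of 0.26 (-0.07 to 0.59, adjusted p 0.423 by edgeR), and caffeine-treated Tg4-42 against WT 0.25 (-0.09 to 0.58, adjusted p 0.471 by edgeR). Kcnq1 itself, the potassium channel gene on the other strand, had 0 to 11 counts per library. The library kit does not mark strand, so reads from unspliced Kcnq1 RNA cannot be told apart from Kcnq1ot1.

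Peg13, the paternally expressed RNA inside an intron of Trappc9 (chr15:72805600-72810324, minus strand), was at 169.4, 180.5 and 176.5 CPM in WT libraries. In Tg4-42 mice it was at 147.7, 150.2 and 191.2 CPM on vehicle and at 170.7, 117.9 and 119.1 CPM on caffeine. The WT libraries lay close together, and 2 of the 3 caffeine libraries were below every library of both other groups. The log2 fold change was -0.11 (-0.43 to 0.21) for Tg4-42 against WT and -0.26 (-0.58 to 0.06, adjusted p 0.399 by edgeR) for caffeine against vehicle. For caffeine-treated Tg4-42 against WT it was -0.37 ± 0.15, with a 95% interval of -0.69 to -0.05 and an adjusted p of 0.26 by edgeR. Over all alternatives the adjusted p for this difference stayed between 0.0561 and 0.735. Trappc9, a trafficking complex gene on the same strand, had 627 to 1193 counts per library on its exons, and nuclear reads from its intron would be counted on Peg13.

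Miat, which binds splicing factors, was at 540.2, 410 and 599.1 CPM in WT libraries, at 464.1, 476.7 and 408.6 CPM on vehicle and at 476.5, 536.2 and 551.9 CPM on caffeine in Tg4-42 mice. The groups overlapped, and the log2 fold change was -0.2 (-0.51 to 0.11), 0.21 (-0.09 to 0.52) and 0.01 (-0.29 to 0.32) for the 3 comparisons in the order used above. The annotated antisense gene Gm26953, which overlaps 24.3% of the Miat exons, had 16 to 52 counts per library. The splicing factor genes of the list for Miat, Sf1, Celf3 and Qk, were tested in each comparison and none was called.

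Snhg11 (chr2:158375638-158386145, plus strand) was at 9556, 6858 and 9291 CPM in WT libraries, at 7674, 8119 and 8161 CPM on vehicle and at 6568, 7926 and 6966 CPM on caffeine in Tg4-42 mice. The groups overlapped in all comparisons. Log2 fold changes were -0.1 (-0.43 to 0.23), -0.16 (-0.49 to 0.17) and -0.26 (-0.59 to 0.07). GENCODE release M21 lists this gene as protein coding and RefSeq as a long noncoding RNA. Of the neighbouring genes, Slc32a1, which encodes the vesicular GABA transporter and lies near Snhg11, fell with caffeine from 19.91 to 10.45 CPM. The fall was 0.93 on the log2 scale (SE 0.2, adjusted p 0.0462 by edgeR). WT mice were at 14.62 CPM, between these levels, and vehicle-treated Tg4-42 against WT gave 0.45 (unadjusted p 0.0378 by edgeR). No tested neighbour, Slc32a1 included, was called in either comparison with WT. No other of the 24 tested neighbours was called between caffeine and vehicle. With the lane as covariate the adjusted p of Slc32a1 between caffeine and vehicle was 0.0668, and with the length correction it was 0.0591. With 1 library left out Slc32a1 stayed called in 1 of 6 cases. Its adjusted p by edgeR was 0.0711 and 0.287 without caffeine replicates 1 and 3, and 0.0692, 0.0834 and 0.242 without vehicle replicates 1, 2 and 3. Gad1 and Gad2, genes of GABA synthesis, had estimates of -0.4 and -0.43 between caffeine and vehicle (adjusted p 0.184 and 0.187 by edgeR). Both are of the 8 neuronal markers, of which 2 had positive estimates. The part of inhibitory neurons in the fall of Slc32a1 was not tested.

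Pantr1 was at 26.75, 29.88 and 20.82 CPM in WT libraries, at 18.61, 22.27 and 22.08 CPM on vehicle and at 26.46, 22.06 and 20.37 CPM on caffeine in Tg4-42 mice. All groups overlapped. Log2 fold changes were -0.3 (-0.65 to 0.06), 0.13 (-0.23 to 0.49) and -0.17 (-0.52 to 0.19). Its neighbour Pou3f3 was at 13 to 20.5 CPM over the libraries, and for caffeine against vehicle its log2 fold change was 0.37, with an adjusted p of 0.252 by edgeR.

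**Figure D4:**
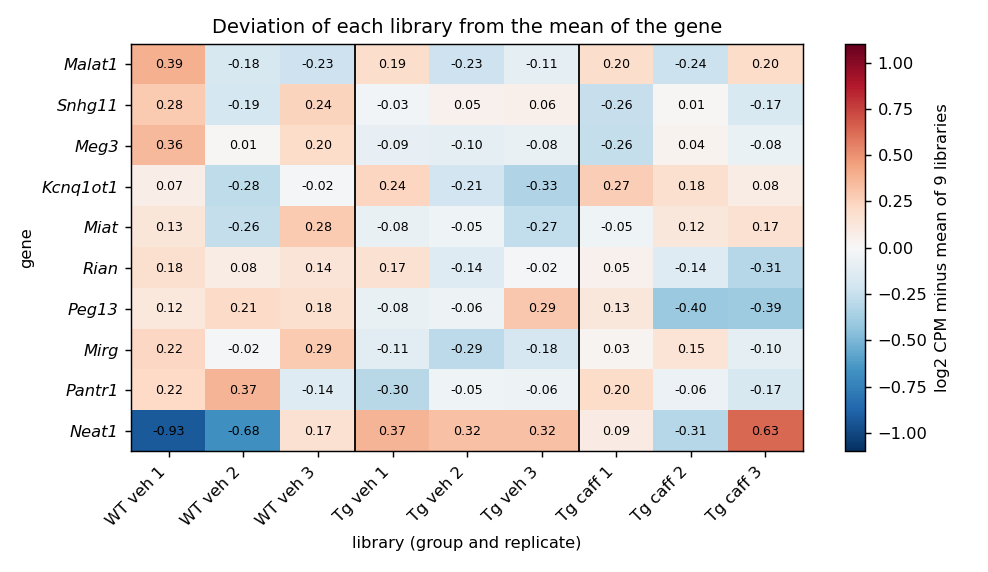
Deviation of log2 CPM of each long noncoding RNA in each library from the mean of the 9 libraries, with genes in rows and libraries in columns grouped by WT vehicle, Tg4-42 vehicle and Tg4-42 caffeine. The largest deviations are those of Neat1, from -0.93 in WT replicate 1 to 0.63 in caffeine replicate 3, and 9 of the 10 RNAs are above the mean in WT replicate 1.

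In WT replicate 1, 9 of the 10 RNAs were above their mean over all libraries, Neat1 being the exception, and in vehicle-treated Tg4-42 replicate 2 only 2 were. The members' share of all counts was 3.246% in that WT library and 2.274% in WT replicate 2. Without WT replicate 1, the log2 fold change of Malat1 between Tg4-42 and WT mice was 0.17 in place of -0.06, and that of Meg3 was -0.2.

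Over the 9 libraries, 45 pairs of members were compared by correlation of log2 CPM, and none passed the Benjamini-Hochberg adjustment. Meg3 and Snhg11 had the smallest p, with r = 0.81 (exact permutation p 0.00787, adjusted p 0.354) and rho = 0.58 (exact permutation p 0.108, adjusted p 0.81). Within groups r was 0.89, and without the 2 libraries farthest from the median of Meg3 it was 0.4. For Meg3 and Mirg, of the same locus, r was 0.69 (exact permutation p 0.0371, adjusted p 0.448) and rho 0.72 (exact permutation p 0.0369, adjusted p 0.81), with 0.57 within groups and 0.18 without the 2 farthest libraries. Neat1 and Pantr1 had r = -0.76 (exact permutation p 0.0164, adjusted p 0.369) and rho = -0.78 (exact permutation p 0.0172, adjusted p 0.775), with -0.64 within groups and -0.4 without the 2 farthest. The correlations of Meg3 with Mirg and with Snhg11, and of Neat1 with Pantr1, were all nearer 0 without the 2 farthest libraries, a step that also narrows the range of values.

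Among the genes whose log2 CPM followed Malat1 most closely over the 9 libraries, of 17351 other genes, were Mtf2 (r = 0.941), Gm43648 (0.924), Gm37954 (0.921) and Kdm5a (0.92). For Meg3 they were Tatdn3 (0.935), Cfap70 (0.919), Dpm2 (0.901), the long noncoding RNA Snhg17 (0.891) and Man2c1 (0.886). With 9 libraries and so many genes compared, these values are a description only.

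Lists of genes tied to these RNAs by function were set beside them. None of 20 nuclear speckle protein genes, 18 paraspeckle protein genes and 10 genes of Polycomb repressive complex 2, which places a repressive histone mark, was called by edgeR in any comparison. Their unadjusted p was under 0.05 for 0, 5 and 2 of the speckle genes, for 0, 1 and 2 of the paraspeckle genes and for 2, 0 and 1 of the Polycomb genes, where the shares of all tested genes were 2.74%, 17% and 15.4%. Of 42 other long noncoding RNAs tested, none was called by edgeR either, and 14, 28 and 25 of them had positive estimates in the 3 comparisons. At an unadjusted p under 0.05, against those same shares, 1 of the 42 was lower between Tg4-42 and WT, 6 were higher and 2 lower between caffeine and vehicle, and 1 was lower between caffeine-treated Tg4-42 and WT. Over all 1801 tested genes that GENCODE lists as long noncoding types, 2 were called lower between Tg4-42 and WT, 3 higher and 3 lower between caffeine and vehicle, and 3 lower between caffeine-treated Tg4-42 and WT. Of all tested genes, 0.0979%, 0.881% and 0.415% were called in these comparisons. The median log2 fold changes of the 1801 genes were 0.04, 0.01 and 0.05.

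Among 34 other imprinted genes tested, Htr2a, a serotonin receptor gene, was the only one called. It fell with caffeine from 18.26 to 6.911 CPM, by 1.4 on the log2 scale (adjusted p 0.0385 by edgeR), and was lower than in WT by the same test (log2 fold change -1.37, adjusted p 0.0297). Against vehicle its adjusted p was 0.0554 with the lane as covariate. With 1 library left out it stayed called against vehicle in 2 of 6 cases and against WT in 1 of 6. Against vehicle the adjusted p was 0.278 without caffeine replicate 3, 0.0657 without caffeine replicate 2, 0.0678 without vehicle replicate 1 and 0.222 without vehicle replicate 3. Against WT it was 0.0819 and 0.246 without caffeine replicates 2 and 3, and 0.066, 0.0845 and 0.0728 without WT replicates 1, 2 and 3.

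For dentate granule cells, the principal neurons of the dentate gyrus, the summed level of 12 markers was 1360 to 1730 CPM on caffeine, 780 to 1250 on vehicle and 909 to 1170 in WT, and 11 of the 12 had positive estimates against vehicle. Plk5, Stxbp6 and Bcl11b passed the test, with log2 fold changes of 1.52, 0.81 and 0.75 and adjusted p of 0.0385, 0.0399 and 0.0469 by edgeR. Without caffeine replicate 3 these were 1.24, 0.71 and 0.57, with adjusted p of 0.189, 0.278 and 0.306, and without vehicle replicate 1 or 3 the 3 genes were not called either (adjusted p 0.0858 to 0.264). Without caffeine replicate 2, Plk5 and Bcl11b missed the threshold, both at 0.0523. With the lane as covariate all 3 missed it, at 0.0575, 0.0582 and 0.0668. For glia the estimates were negative for 7 of 8 astrocyte, 9 of 9 oligodendrocyte and 8 of 8 microglia markers, with medians of -0.67, -0.62 and -0.56. None of these was called by edgeR, and 5, 5 and 2 of them were lower at an unadjusted p under 0.05, as were 1705 of all 17361 tested genes. For astrocyte markers the summed levels on caffeine and on vehicle overlapped (285 to 362 and 312 to 432 CPM). Slc1a2 held most of that sum, and without it the levels were 73.6 to 95.5 CPM on caffeine, 104 to 114 on vehicle and 98.2 to 132 in WT. For CA1 pyramidal markers the sum was 1790 to 2100 CPM on caffeine and 1180 to 1680 on vehicle, but 1 gene, Zbtb20, was at 1300 to 1580 and 537 to 1040 CPM. Without Zbtb20 the CA1 sum was 492 to 537 CPM on caffeine and 575 to 646 on vehicle, and 6 of the 8 markers had negative estimates. The sums without these genes were chosen after seeing the data. The part of these shifts in the caffeine estimates of the 10 RNAs, such as those of Kcnq1ot1, Mirg and Peg13, was not tested. Between Tg4-42 and WT mice on vehicle the only marker called was Cdh24, of the CA3 list, at 6.929 and 1.525 CPM (log2 fold change 2.18), and it was called on caffeine against WT too (2.53). In the former comparison 5 of the 7 CA3 markers had negative estimates, with a median of -0.09. In the latter 5 of the 7 had positive estimates, with a median of 0.29. Wfs1, of the CA1 list, was at 101.8 CPM on caffeine and 173.3 in WT (-0.77, adjusted p 0.0408 by edgeR). Of the 8 CA1 markers, 3 had positive estimates in that comparison, and the median of the list was -0.21. Without caffeine replicates 2 or 3 or WT replicates 2 or 3 the adjusted p of Wfs1 by edgeR was 0.121, 0.341, 0.135 and 0.0792. With the lane as covariate it was 0.0607.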

How the data were processed

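RNA was sequenced from NeuN-sorted hippocampal nuclei in 9 libraries (SMART-Seq v4 and Nextera XT, single-end reads of 50 bp, HiSeq). The authors aligned reads with STAR to mm10 and deposited raw featureCounts counts on exons per gene. Neither the strand setting nor the annotation release is given in the sources used here. The study's methods give 3 mice per group and the labels 6. Vehicle groups follow from the genotype labels and the study's design, and replicate numbers from the order of animal numbers and library names. Libraries with the same number correlated in their deviations from group means at 0.188, 0.138 and 0.156 between WT and vehicle-treated Tg4-42 mice. There, libraries with different numbers were at -0.156 to 0.005. Between other groups, libraries with different numbers reached -0.305 and 0.215, so these values do not establish pairs. Number 3 was also lane 7 in every group. The main fit was unblocked, and a fit with the number as a block was run beside it. P-values measure the spread between these libraries.

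Symbols, positions and exon lengths came from GENCODE M21, which matched 48349 of 48709 identifiers. Genes were kept by edgeR's filter (minimum count of 10, minimum total count of 15). TMM scaling, 1 quasi-likelihood fit of all 9 libraries (edgeR 4.0.16 in R 4.3.3) and Benjamini-Hochberg adjustment over 17361 genes followed, with a threshold of 0.05, and log2 CPM used a prior count of 2. Exact permutation tests were two-sided, and those of groups used a pseudocount of 0.5. DESeq2 1.42.0 and limma 3.58.1 (voom) were alternatives, beside other scaling, filters, samples, lane, block, thinning, members left out of library sizes and each library left out. Corrections for GC content and exon length were added once the data had been seen. The method was tested on simulated data.

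The 10 members and the lists were chosen with earlier results of these data known. Named with values were the members, their neighbours, the called genes of each list with the 2 largest changes, and the 5 genes most correlated with Malat1 and with Meg3, of which 1 is not reported here. Bcl11b, Zbtb20, Slc1a2, Prnp, Calm2, Snap25, Gad1, Gad2 and Gm26953 are not named by that rule and were picked with their values known. Promoter windows of Neat1, Peg13 and Pantr1 were not used here.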

Additional observations from a re-analysis of the deposited data

How the results depend on the processing

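No member was called under any of 12 alternatives or with any library left out, in 540 estimates, of which 519 kept their direction and 21 changed sign. Those that changed sign had estimates of -0.15 (Neat1, caffeine against vehicle) to 0.05. Meg3 between caffeine and vehicle was 0.00 with DESeq2 and with RLE scaling, 0.01 without a filter and with limma-voom and 0.04 with GC correction, and -0.08 to 0.07 with 1 library left out. With 1 library left out, Neat1 in that comparison ranged from -0.44 to 0.05. Between Tg4-42 and WT, Malat1 ranged from -0.19 to 0.17 and Kcnq1ot1 from -0.20 to 0.09, and between caffeine-treated Tg4-42 and WT, Malat1 ranged from -0.06 to 0.27 and Miat from -0.13 to 0.14. The causes were not tested. The number of all genes called moved more. Between caffeine and vehicle, 153 genes became 751 with DESeq2, 987 without a filter, 9 with the lane as covariate, 618 with limma-voom, 250 with GC correction, 69 with length correction, and 0 to 341 with 1 library left out. That count was 0 without caffeine replicate 3 or without vehicle replicate 3, where 1641 and 1869 genes had an unadjusted p under 0.05. It was 3 without vehicle replicate 1, 58 without caffeine replicate 2 and 341 without caffeine replicate 1. Between caffeine-treated Tg4-42 and WT, 72 became 553, 860 and 42 with the first 3 of these settings, 120 with GC correction and 16 to 287 with 1 library left out. Between Tg4-42 and WT, 17 became 74 without a filter. The share of higher calls between caffeine and vehicle was 24.2%, with 44.8% under GC correction and 39.1% under length correction. The replicate number as a block gave 16, 187 and 82 called genes and 0 members. Of the other genes named, the calls of Slc32a1, Htr2a, Plk5, Stxbp6 and Bcl11b between caffeine and vehicle and of Wfs1 against WT were lost with the lane as covariate, and those of Slc32a1, Bcl11b and Wfs1 with length correction. The block changed no member's call and ended that of Bcl11b between caffeine and vehicle (adjusted p 0.0515), where same-numbered libraries did not all correlate (-0.171 to 0.181). Depth limits Neat1 most, at 73 to 223 counts.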
